A study of Mus musculus with 2 samples.

Results

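Dividing cells make 2 bursts of transcripts, 1 around the copying of DNA and 1 around its separation, and 39 genes of these programmes were followed in single cells of the mouse pituitary gland. They were chosen by name for what their proteins do, as 16 DNA replication genes (Mcm2, Mcm3, Mcm4, Mcm5, Mcm6, Mcm7, Pcna, Tyms, Rrm1, Rrm2, Gins2, Cdc6, Uhrf1, Tk1, Slbp and Dut) and 23 mitosis genes (Top2a, Mki67, Ube2c, Spc25, Cenpf, Cenpe, Ccnb1, Ccnb2, Ccna2, Cdk1, Prc1, Hmmr, Aurka, Aurkb, Nusap1, Birc5, Tpx2, Bub1, Plk1, Cdc20, Kif11, Ckap2l and Neil3). The choice was made with earlier results of these data known. Each of the 39 symbols was found among the 28693 genes measured. The cells came from male C57BL/6 mice of 7 weeks that were housed singly and received no treatment named in the labels. There were 2 libraries of dispersed cells, each from a pool of 3 glands, profiled with a droplet method that reads the 3′ ends of transcripts and counts each captured molecule once by its unique molecular identifier (UMI). There is no second condition, so the comparisons are between cell classes and between dividing and resting cells of the same glands. Since single glands cannot be told apart within a pool, n is 2 libraries throughout. The main fits take out an overall shift between these 2 pools. Their p-values measure the spread that is left, in how differences between classes or states vary from pool to pool. Each fit holds several sums of cells from the same pool, which are not independent replicates.

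The replication genes fall into a few roles. Mcm2 to Mcm7 encode the ring-shaped helicase that opens the double helix, Cdc6 helps load it at origins, Gins2 is a subunit of the complex that activates it, and Pcna is the sliding clamp that holds the polymerases on DNA. Tyms, Rrm1, Rrm2, Tk1 and Dut make or clean the pool of DNA precursors, Slbp binds the stem-loop of histone messages, and Uhrf1 guides the copying of DNA methylation. The mitosis genes encode the kinase Cdk1 and its cyclins (Ccna2, Ccnb1, Ccnb2), the kinases Aurka, Aurkb, Bub1 and Plk1, the anaphase-promoting complex partners Cdc20 and Ube2c, proteins of the kinetochore and spindle (Cenpe, Cenpf, Spc25, Kif11, Prc1, Tpx2, Nusap1, Hmmr, Ckap2l) and of the chromosomes (Top2a, Mki67, Birc5), and Neil3, a glycosylase that repairs DNA. In the young pituitary gland, new hormone cells come both from stem cells and from the division of hormone cells that are already mature.

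After quality filters and removal of likely doublets, 6011 cells of library 1 and 6524 of library 2 were used, 12535 in all. The median barcode held 10128 UMIs in library 1 and 10636 in library 2, and 54 barcode sequences occurred in both libraries. Gh, the growth hormone gene, took 41.6% and 38.4% of all UMIs, as the label pituitary gland calls for. Cell classes were made by clustering on 86 marker genes that hold none of the 39 genes and no other cell cycle gene, and a class is called "like" a cell type when at least 3 markers of that type stood out. Somatotrope-like cells (growth hormone) made up 47.8% ± 2.82 of cells and lactotrope-like cells (prolactin) 25.5% ± 2.00 (SD, n = 2). The other classes were gonadotrope-like, corticotrope-like, melanotrope-like, stem-like, endothelial-like, fibroblast-like, macrophage-like and pituicyte-like cells, at 0.444% to 4.22% each, and 8.42% ± 0.0314 of cells stayed unnamed. A cluster lost its name when another type had more markers among its most raised genes, or when it was shallow with none of its own there. In the unnamed clusters 48% to 99.5% of cells drew over 30% of their UMIs from Gh.

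Of the 12535 cells, 11128 (88.8%) held no UMI of any mitosis gene, and they are called resting for short. Another 1070 cells held UMIs of 1 or 2 different mitosis genes. Only 337 cells held 3 or more, and these are called mitosis-positive. They were 171 cells (2.84%) of library 1 and 166 (2.54%) of library 2. By number of genes, 985 cells held exactly 1 mitosis gene, 85 held 2, 31 held 3, 104 held 3 to 7, and 233 held 8 or more. The threshold lay on the falling slope from single detections, and the counts were lowest further on, with 6 to 10 cells at each number from 8 to 12, before they rose again to 30 cells at 19 genes. Among mitosis-positive cells, Birc5, a subunit of the chromosomal passenger complex, was found in 83.0% and 84.9% (library 1, library 2), Cdk1 in 74.3% and 79.5%, Spc25 in 76.0% and 75.3% and Top2a, the topoisomerase that untangles chromosomes, in 71.9% and 67.5%. Bub1 was found least often, in 25.1% and 24.7%. Since these genes set the state, their shares in it are a description.

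**Figure D1:**
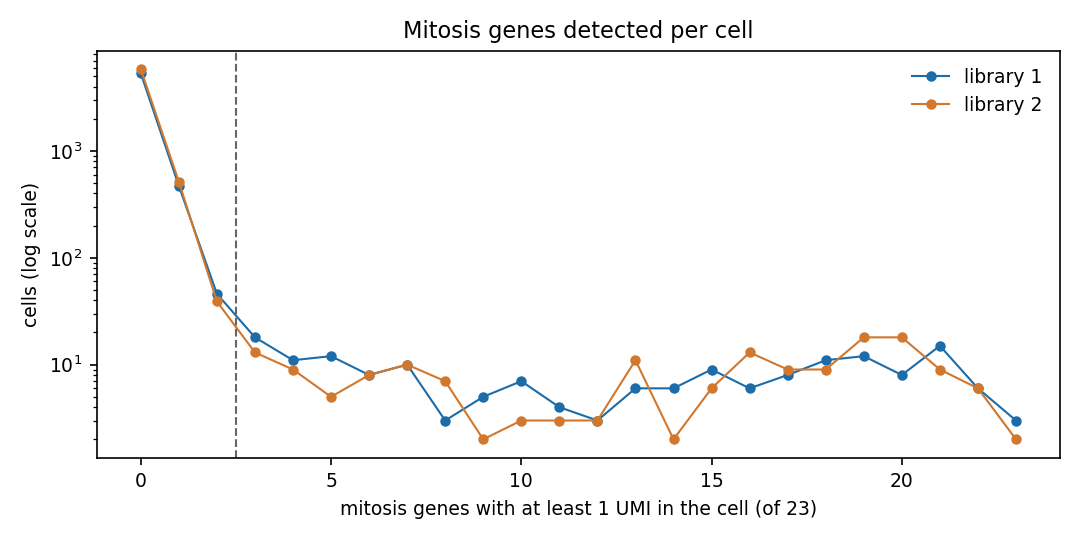
Number of cells (log axis) against the number of different mitosis genes with at least 1 UMI in a cell, for each library. Cells with none number 5323 and 5805, and cells that hold 8 or more of the 23 genes number 112 in library 1 and 121 in library 2.

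Mitosis-positive cells were deeper than resting cells, with a median of 13597 and 14088 UMIs against 9985 and 10517. Their mitochondrial share was lower, 1.91% and 1.84% against 2.34% and 2.28%. Somatotrope-like cells drew a median of 56.0% and 54.3% of their UMIs from Gh when mitosis-positive and 62.7% and 61.8% when resting. Before doublets were removed, 10 of 181 mitosis-positive cells (5.52%) in library 1 and 13 of 179 (7.26%) in library 2 were among the doublet calls, next to 7.59% of all cells. Among the cells used, the median doublet score was still higher in mitosis-positive cells, at 0.702 and 0.754 against 0.653 and 0.627 in resting cells. Within somatotrope-like cells it was 0.711 and 0.762 against 0.669 and 0.659. In the t-SNE map that the authors deposited, 84.4% and 83.1% of the 15 nearest neighbours of a mitosis-positive cell were mitosis-positive, where 2.69% of all cells were. The shares below were also taken with cells thinned to the same depth, shallower cells being left out, and with doublet calls kept.

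The promoters of these genes show what the sequence around their start sites holds, since members of a programme that move together can share motifs there. RefSeq promoters (GRCm38.p6, 250 bases before to 50 after the start) were found for 34 of the 39 genes, 14 replication and 20 mitosis genes. 3 motifs were searched on both strands: E2F-type sites (TTCCCGC or TTGGCGC), the cell cycle homology region, CHR (TTTGAA or TTCGAA), and the CCAAT box, 3 sets of letters of which none contains another. An E2F-type match was found for 7 of 14 replication genes (Mcm3, Mcm5, Mcm6, Mcm7, Rrm1, Cdc6 and Uhrf1) and for 3 of 20 mitosis genes (Mki67, Ccnb1 and Cdk1), and for 7.79% of all 27025 genes with a promoter. A CHR match was found for 2 of 14 replication genes (Mcm2 and Mcm7), 16 of 20 mitosis genes and 21.7% of all genes. Both a CHR and a CCAAT match were found for 15 of 20 mitosis genes, 2 of 14 replication genes and 8.61% of all genes. Matches are descriptions of letters, not of bound sites. The 6 promoters below are shown 5′ to 3′ on the strand of the gene. Rrm2 and Slbp stand at opposite ends of the replication genes in the share of their UMIs that lay in resting cells. Mcm3 had the largest fitted difference between classes in resting cells. Top2a, Cdc20 and Ccnb2 are mitosis genes described below, of which Top2a was called in none of the tests between classes. Capitals mark E2F-type, CHR and CCAAT matches on either strand.
Rrm2 (chr12:24708004-24708303, + strand): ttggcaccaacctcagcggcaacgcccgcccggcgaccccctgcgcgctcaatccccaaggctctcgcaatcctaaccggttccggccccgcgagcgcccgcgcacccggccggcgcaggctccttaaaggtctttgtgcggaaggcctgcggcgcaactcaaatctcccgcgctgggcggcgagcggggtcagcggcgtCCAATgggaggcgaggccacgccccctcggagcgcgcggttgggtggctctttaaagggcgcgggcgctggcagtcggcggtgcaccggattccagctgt
Slbp (chr5:33652525-33652824, - strand): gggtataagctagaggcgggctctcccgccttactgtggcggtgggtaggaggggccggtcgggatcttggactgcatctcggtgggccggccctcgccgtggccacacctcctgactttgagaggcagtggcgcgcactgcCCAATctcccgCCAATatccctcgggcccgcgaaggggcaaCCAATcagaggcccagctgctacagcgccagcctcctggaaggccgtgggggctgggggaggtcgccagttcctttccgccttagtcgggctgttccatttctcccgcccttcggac
Mcm3 (chr1:20820263-20820562, - strand): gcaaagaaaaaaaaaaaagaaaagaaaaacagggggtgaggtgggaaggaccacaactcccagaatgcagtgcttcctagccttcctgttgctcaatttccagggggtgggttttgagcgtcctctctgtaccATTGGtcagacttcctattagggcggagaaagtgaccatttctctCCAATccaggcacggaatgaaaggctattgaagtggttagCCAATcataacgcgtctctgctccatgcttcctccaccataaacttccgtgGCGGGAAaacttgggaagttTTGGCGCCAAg
Top2a (chr11:99024140-99024439, - strand): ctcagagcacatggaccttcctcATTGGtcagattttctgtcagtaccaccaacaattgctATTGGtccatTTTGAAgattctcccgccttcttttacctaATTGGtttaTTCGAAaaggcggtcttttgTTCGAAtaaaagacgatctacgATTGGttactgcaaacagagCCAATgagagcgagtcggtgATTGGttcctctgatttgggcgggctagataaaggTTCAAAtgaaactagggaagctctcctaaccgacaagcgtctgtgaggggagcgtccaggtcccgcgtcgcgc
Cdc20 (chr4:118437294-118437593, - strand): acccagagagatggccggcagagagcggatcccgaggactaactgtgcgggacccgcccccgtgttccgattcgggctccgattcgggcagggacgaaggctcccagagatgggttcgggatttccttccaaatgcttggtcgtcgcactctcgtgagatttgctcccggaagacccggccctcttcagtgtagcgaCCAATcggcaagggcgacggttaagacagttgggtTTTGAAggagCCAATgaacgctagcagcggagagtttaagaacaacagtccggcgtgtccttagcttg
Ccnb2 (chr9:70421505-70421804, - strand): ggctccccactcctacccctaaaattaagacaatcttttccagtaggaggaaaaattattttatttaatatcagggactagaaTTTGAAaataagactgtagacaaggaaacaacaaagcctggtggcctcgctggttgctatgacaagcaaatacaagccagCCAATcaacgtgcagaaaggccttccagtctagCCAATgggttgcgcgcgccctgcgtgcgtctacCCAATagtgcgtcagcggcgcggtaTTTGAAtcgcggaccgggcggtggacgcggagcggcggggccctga
The Rrm2 promoter held 1 CCAAT match and the Slbp promoter 3, neither with an E2F-type or CHR match. The Mcm3 promoter held 3 E2F-type matches, of which 2 overlap on opposite strands, and 3 CCAAT matches. Top2a held 4 CHR and 6 CCAAT matches, Cdc20 1 and 2, and Ccnb2 2 and 3.

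Mitosis-positive cells were found in most classes, but at different shares. Endothelial-like cells had the highest share, with 12 of 129 cells in library 1 (9.30%, exact binomial 95% interval 4.90 to 15.7%) and 11 of 151 in library 2 (7.28%, 3.69 to 12.7%), a mean of 8.29% ± 1.43 (SD, n = 2). Somatotrope-like cells held most of the mitosis-positive cells by number, 101 of 2995 (3.37%, 2.76 to 4.08%) and 95 of 2990 (3.18%, 2.58 to 3.87%). Lactotrope-like cells held 26 of 1450 (1.79%, 1.17 to 2.62%) and 28 of 1758 (1.59%, 1.06 to 2.29%). Unnamed cells held 13 of 505 (2.57%) and 17 of 551 (3.09%). In an unnamed cluster of 65 cells, of which 96.9% had over 30% Gh UMIs, 7 (10.8%) were mitosis-positive. In a somatotrope-like cluster of 417 cells, 34 (8.15%) were mitosis-positive, 13 in library 1 and 21 in library 2. The other somatotrope-like clusters ran from 1.90% to 4.91%. Differences between clusters were not tested. In both libraries the lactotrope-like interval lay under the somatotrope-like one. With doublet calls kept this order did not hold in both: the shares were 2.98% and 2.58% of somatotrope-like and 2.19% and 2.595% of lactotrope-like cells. In that setting the cells were clustered and named anew. A cluster of 324 and 319 cells was named lactotrope-like there, though 42.7% of its UMIs were Gh. Its most raised genes were led by Cdca3, Cenpa and Cks2 and held no lactotrope marker. The same genes led in the somatotrope-like cluster of 417 cells described above, of which 8.15% were mitosis-positive. Whether the 2 clusters share cells was not tested, nor was the part of this naming in the change. The endothelial-like interval lay above the somatotrope-like one in library 1 and overlapped it in library 2. These intervals cover counting error only, and with 1 condition and 2 pools the shares were not tested.

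In the rarer classes the mitosis-positive cells were few. None of 259 gonadotrope-like cells in library 1 and none of 270 in library 2 was mitosis-positive, and such counts of 0 allow shares of up to 1.16% and 1.11%, or 0.567% over both. Corticotrope-like cells had 2 of 224 (0.893%) and 0 of 281, and melanotrope-like cells 2 of 112 (1.79%) and 1 of 145 (0.690%). Stem-like cells had 8 of 176 (4.55%, 1.98 to 8.76%) and 7 of 167 (4.19%, 1.70 to 8.45%), fibroblast-like cells 4 of 83 and 5 of 95, and macrophage-like cells 2 of 56 and 2 of 82. The intervals of the stem-like and somatotrope-like classes overlapped in both libraries. Of the stem-like mitosis-positive cells, 1 in each library drew over 30% of its UMIs from Gh, and without cells of this kind the stem-like shares were 4.09% and 3.61%. None of the endothelial-like mitosis-positive cells was such a cell.

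The order of the endothelial-like, somatotrope-like and lactotrope-like classes was the same at equal depth. With cells thinned to 2000 UMIs outside 7 hormone genes, the shares were 7.81% and 5.30% for endothelial-like, 2.53% and 2.51% for somatotrope-like, and 1.39% and 1.09% for lactotrope-like cells. Cells under this depth were left out: 265 of 2995 and 119 of 2990 somatotrope-like, 16 and 14 lactotrope-like, and 1 and 0 endothelial-like cells. The stem-like share fell to 1.72% and 2.40% on thinning, so that it no longer stood above the somatotrope-like share. Gonadotrope-like cells were deeper than somatotrope-like cells, with medians of 7927 and 8318 UMIs outside the hormone genes against 4925 and 5185, though by total UMIs they were shallower, at 9819 and 10426 against 12791 and 13691. UMIs of only 1 or 2 mitosis genes were still found in 8.88% and 6.30% of gonadotrope-like cells. These shares were 8.75% and 9.10% of somatotrope-like and 12.4% and 16.6% of endothelial-like cells, so such UMIs were not read as division. With mitosis-positive cells counted too, they were 12.1% and 12.3% of somatotrope-like and 21.7% and 23.8% of endothelial-like cells. Free RNA, estimated from Gh in endothelial-like cells at 2.55% and 2.13% of their UMIs, would give a mitosis UMI to 1.38% and 1.02% of those cells.

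**Figure D2:**
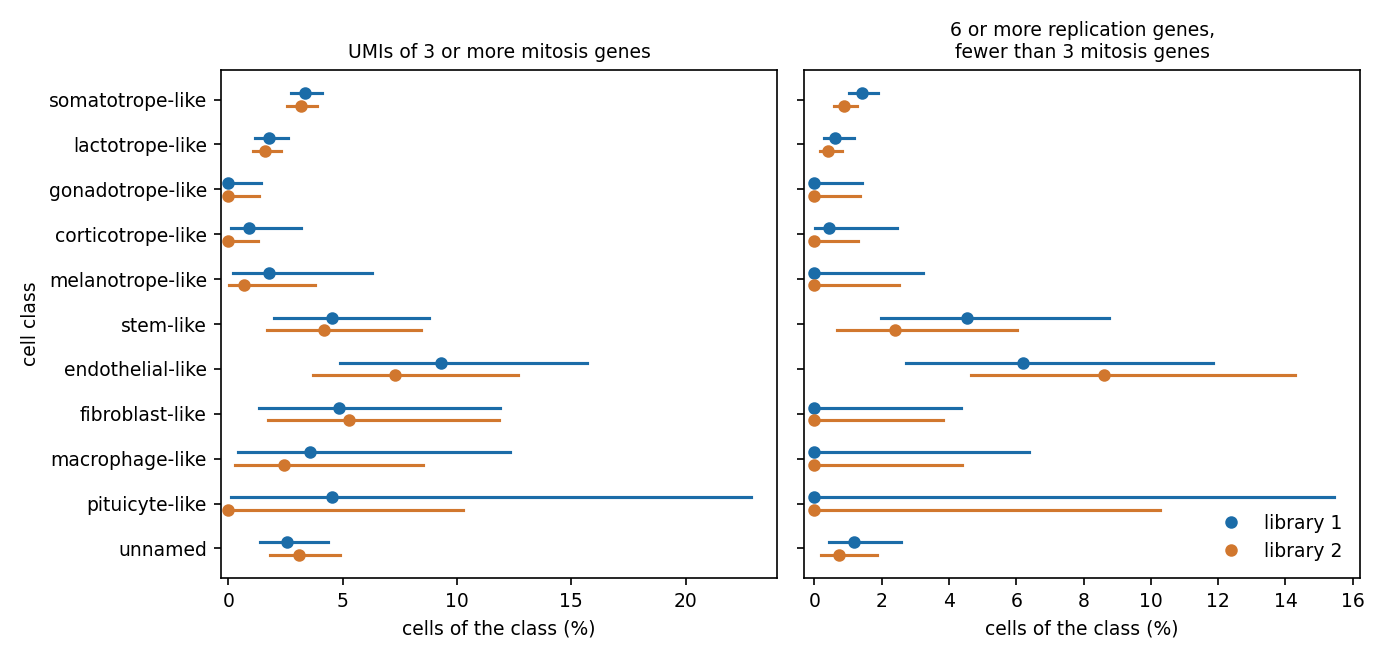
Percent of cells per class that were mitosis-positive (UMIs of 3 or more of the 23 mitosis genes) in each library, with exact binomial 95% intervals as bars. Endothelial-like cells stood at 9.30% and 7.28%, somatotrope-like at 3.37% and 3.18%, lactotrope-like at 1.79% and 1.59%, and gonadotrope-like at 0.

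Replication genes did not mark dividing cells equally. Slbp and Dut were common in resting cells: a UMI of Slbp was found in 29.6% and 31.7% of them and one of Dut, the enzyme that clears dUTP, in 28.6% and 30.5%. Of all Slbp UMIs, 75.4% lay in resting cells. In mitosis-positive cells the shares were 67.3% and 68.1% for Slbp and 70.8% and 68.1% for Dut. Free RNA would give a Slbp UMI to 0.494% and 0.404% of endothelial-like cells, where 42.6% and 39.1% had one. No class that should lack Slbp or Dut was at hand as a background, and free RNA was not estimated for Dut.

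Pcna came next, in 13.6% and 15.04% of resting cells and 61.4% and 57.8% of mitosis-positive cells. Tyms, which makes thymidylate, was found in 8.53% and 8.99% of resting and 59.1% and 57.2% of mitosis-positive cells. The helicase genes spread widely: Mcm7 was found in 8.13% and 6.77% of resting cells, Mcm2 in 5.09% and 5.46%, Mcm4 in 4.51% and 5.62%, Mcm6 in 4.36% and 3.74%, Mcm5 in 1.86% and 2.02% and Mcm3 in 1.503% and 1.29%. Genes of 1 hexameric complex thus differed several-fold in how often they were seen outside division, though UMIs of different genes are caught with different efficiency, so levels of 2 genes are not compared directly. In mitosis-positive cells the same 6 genes were found in 31.0% (Mcm4) to 47.4% (Mcm7) of cells in library 1 and in 32.5% (Mcm4) to 46.4% (Mcm7) in library 2. Rrm1, the large subunit of ribonucleotide reductase, was found in 4.08% and 4.65% of resting cells, and Gins2 in 2.35% and 1.93%. Reads of Slbp, Mcm7, Gins2 and Tk1 may include those of genes that overlap them on the other strand (Gm10459, Cops6 and Ap4m1, Gse1, and Afmid), since no source used here says whether the counting used strand.

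At the other end stood Rrm2, Tk1, Cdc6 and Uhrf1. Rrm2, the small and regulated subunit of ribonucleotide reductase, had a UMI in 0.301% and 0.362% of resting cells and in 48.5% and 55.4% of mitosis-positive cells. Of its 896 UMIs, 4.13% lay in resting cells. Tk1, the thymidine kinase, was found in 0.150% and 0.224% of resting cells against 28.7% and 30.7%, Cdc6 in 0.169% and 0.190% against 15.8% and 16.9%, and Uhrf1 in 0.451% and 0.310% against 25.1% and 28.3%. For Rrm2 and Tk1 the resting share of all UMIs was 4.13% and 7.64%, for Cdc6 and Uhrf1 19.6% and 22.7%, and for the other 12 replication genes it ran from 37.8% (Mcm3) to 75.4% (Slbp).

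The same counts can be read from the other side, by asking how often a cell with a UMI of a gene also held at least 2 other genes of the mitosis list. This uses the same cells and mitosis genes as the shares above, so it is no separate check of the ranking. For Slbp this was so in 7.15% and 5.84% of cells, for Dut in 7.73% and 6.20%, for Pcna in 13.05% and 9.99% and for Tyms in 18.3% and 15.2%. For Rrm2 it was so in 79.6% and 80%, for Tk1 in 82.0% and 74.3%, for Cdc6 in 65.9% and 72.1% and for Uhrf1 in 60.5% and 68.1%. The mitosis genes themselves ran from 64.8% (Aurka) to 97.7% (Bub1) over both libraries. The shares for Rrm2 and Tk1 were thus within the range of the mitosis genes, and those for Slbp and Dut were far under it. Thinned to 2000 UMIs outside the hormone genes, the resting shares over both libraries were 13.2% for Slbp, 12.9% for Dut, 5.64% for Pcna, 0.150% for Rrm2 and 0.0749% for Tk1.

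Some cells held many replication genes with few or no mitosis genes. A count of at least 6 of the 16 replication genes with fewer than 3 mitosis genes, a limit chosen after the values were seen, gave 128 such replication-only cells, 74 in library 1 (1.23%) and 54 in library 2 (0.828%). There were 38 cells with exactly 6 replication genes and 53 with exactly 5. By class, 68 were somatotrope-like, 21 endothelial-like, 16 lactotrope-like, 12 stem-like, 10 unnamed and 1 corticotrope-like, and none was gonadotrope-like. Their share was 6.20% (95% interval 2.72 to 11.9%) and 8.61% (4.66 to 14.3%) of endothelial-like cells against 1.40% and 0.870% of somatotrope-like cells.

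The replication genes were not seen equally often in the 2 kinds of cell. Each gene was taken there over cells with at least 5 of the other replication genes, so that it did not help to choose them. Dut was found in 86.1% and 72.9%, Slbp in 72.8% and 73.3%, Pcna in 64.3% and 68.8%, Mcm6 in 53.6% and 47.1% and Mcm2 in 52.2% and 47.9%. Rrm2 was found in 2.91% and 2.60% and Tk1 in 4.85% and 6.41%, far under their 48.5% and 55.4% and their 28.7% and 30.7% in mitosis-positive cells. Rrm1, the partner subunit of Rrm2, was found in 31.6% and 22.9%, against 52.05% and 55.4%. Cdk1 was the mitosis gene seen most in replication-only cells, in 12.6% and 15.4%. In the authors' t-SNE map 20.1% and 14.0% of the neighbours of replication-only cells were mitosis-positive.

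Mitosis-positive cells also differed among themselves. In library 1, 101 of 171 (59.1%) held at least 6 replication genes, 24 held 3 to 5 and 46 held 0 to 2. In library 2 these numbers were 100 of 166 (60.2%), 25 and 41. The cells with 0 to 2 replication genes were shallower, with a median of 5074 and 4790 UMIs outside the hormone genes against 7714 and 8153. In spite of that, Cdc20, the activator of the anaphase-promoting complex, had a mean of 4.85 UMIs per cell in them against 2.50 in cells with at least 6 in library 1, and 4.51 against 2.38 in library 2. Ccnb1 had 2.22 against 1.06 and 1.88 against 1.5. Lower in the cells with few replication genes were Top2a (1.39 against 3.52, and 0.634 against 4.04), Cdk1 (1.87 against 4.41, and 1.05 against 4.75), Aurkb (0.239 against 1.13, and 0.293 against 0.970) and Neil3 (0.109 against 0.653, and 0.195 against 0.820). Cenpf went one way in library 1 (3.65 against 2.50) and the other in library 2 (2.49 against 2.72). The 2 groups of cells were set by measured counts of replication genes, so these values are a description.

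To compare levels, UMIs were summed over mitosis-positive and over resting cells of the 3 classes with at least 10 mitosis-positive cells in each library (somatotrope-like, lactotrope-like and endothelial-like), and compared by the quasi-likelihood test of edgeR with library as a block. All 16 replication genes were higher in mitosis-positive cells at an adjusted p under 0.05. Of the 9696 genes tested, 23.4% were called, 10.6% higher and 12.8% lower. Rrm2 had 199 and 215 UMIs in mitosis-positive somatotrope-like cells and 9 and 9 in the far more numerous resting ones. In lactotrope-like cells it had 90 and 109 against 2 and 3, and in endothelial-like cells 24 and 22 against 1 and 0. Its log2 fold change was 8.78 ± 0.28 (SE; edgeR adjusted p = 1.2e-93). Tk1, with 7 UMIs in all resting cells of these classes, had a log2 fold change of 8.44 ± 0.35. Slbp, at the other end, changed by 2.10 ± 0.11 (edgeR adjusted p = 2.1e-49) and Dut by 2.19 ± 0.15.

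Between these ends lay Mcm4 (2.34 ± 0.30), Mcm7 (2.82), Pcna (2.96), Mcm2 (3.08), Tyms (3.15), Mcm6 (3.46), Rrm1 (3.66), Mcm3 (4.03), Mcm5 (4.06), Gins2 (4.13), Uhrf1 (5.07) and Cdc6 (5.82 ± 0.79), all as log2 fold changes. Their median over the 16 genes was 3.56, where that of all genes tested was -0.19. In CPM, counts scaled to a common total per library, the mean over the 3 classes and 2 libraries was 195 in mitosis-positive and 0.463 in resting cells for Rrm2, and 232 and 54.9 for Slbp. Within somatotrope-like and within lactotrope-like cells all 16 genes were higher as well (15.5% and 11.9% of all genes higher), and within endothelial-like cells 14 were (2.7% higher). The exceptions there were Mcm4 (log2 fold change 1.45, edgeR adjusted p = 0.206) and Cdc6 (3.95, adjusted p = 0.165). Without library 1 the edgeR call of Mcm3 was lost (adjusted p = 0.251), and with totals that leave out the hormone genes, 1369 genes were higher and 645 lower, where the split was 1028 and 1245. The median of all genes then moved from -0.19 to -0.01.

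**Figure D3:**
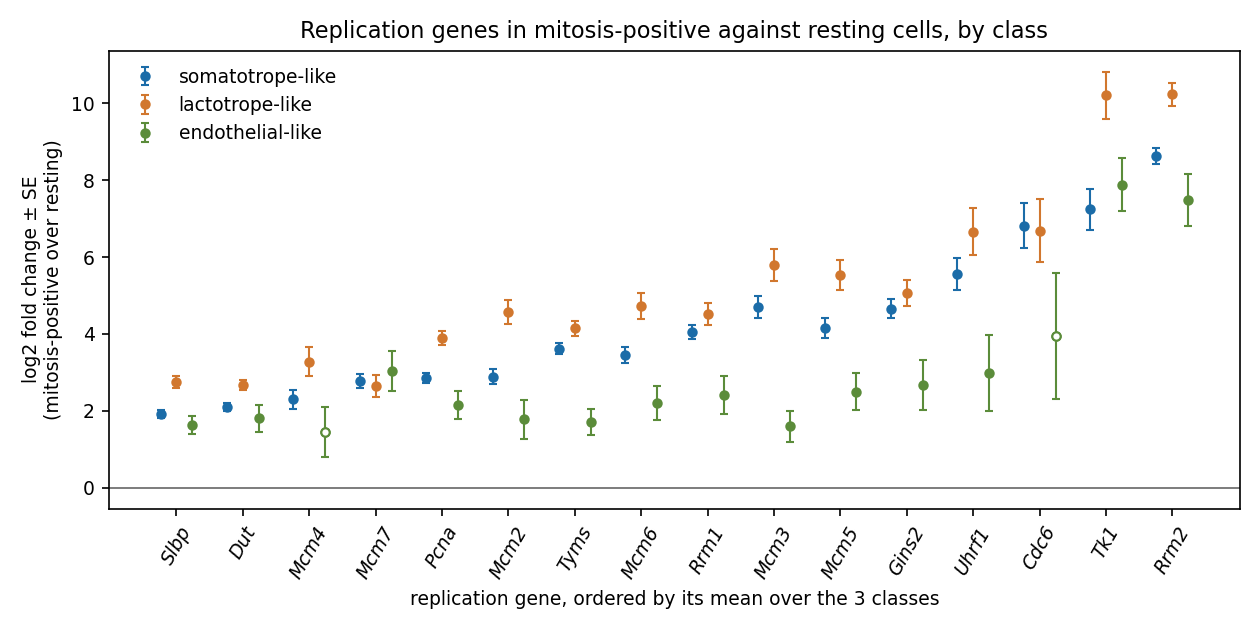
Log2 fold change between mitosis-positive and resting cells for each of the 16 replication genes, fitted with edgeR within somatotrope-like, lactotrope-like and endothelial-like cells, with standard errors as bars and open points for an adjusted p of 0.05 or more. Slbp and Dut are lowest in the mean over classes and Rrm2 and Tk1 highest, at 2.10, 2.19, 8.78 and 8.44.

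The size of this change was not the same in the 3 classes, by contrasts of the same edgeR fit that were added after the values were seen. In endothelial-like cells 7 of the 16 genes changed less than in the mean of somatotrope-like and lactotrope-like cells (2.45% of all genes were lower in this contrast). The endothelial-like side rests on 12 and 11 mitosis-positive cells. Resting cells with at least 6 replication genes were kept in this fit, and the contrast was not tested without them. The largest difference was that of Mcm3, whose log2 ratio of mitosis-positive to resting cells was 1.89 and 1.30 in endothelial-like cells, 4.25 and 5.17 in somatotrope-like cells and 5.46 and 6.03 in lactotrope-like cells. In lactotrope-like cells 5 genes changed more than in somatotrope-like cells (0.99% of all genes were higher in this contrast), with Mcm2 at 4.75 and 4.44 against 2.99 and 2.77. The libraries of the classes compared did not overlap for either gene.

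The other genes of the pathway came from lists written with earlier results of these data known, and 10.6% of all genes were higher and 12.8% lower in this test. Of 40 further origin and fork genes tested, 37 rose in mitosis-positive cells and none fell, with Pole (7.12), Mcm10 (6.47) and Clspn (5.94) largest and Orc2 (1.11), Pold2 (1.10) and Gins4 (1.03) smallest in log2 fold change. Their median was 2.52. Of 47 further spindle, kinetochore and condensin genes, 46 rose, led by Nuf2 (10.19), Cdca8 (9.27) and Casc5 (9.08), with a median of 5.15. The single gene that fell was Pttg1 (-1.20), which encodes securin. The cells were split by genes of the same programme, so this list's direction follows closely on the split. Of 26 regulators 18 rose and 1 fell, Ccnd2 (-0.77), a D-type cyclin. Of 16 inhibitors of the cycle 6 rose and 2 fell, among them Cdkn2a (6.04), Cdkn2c (2.69) and Cdkn2d (1.96) upwards and Btg1 (-0.41) and Btg2 (-0.71) downwards.

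Across classes, with all cells summed, 37 of the 39 genes had enough UMIs to be tested (Cdc6 and Bub1 did not). Lactotrope-like cells had 21 of them lower and 1 higher than somatotrope-like cells by edgeR's test, where 44.2% of all 12098 genes were called, 22.8% lower and 21.4% higher. Cdc20 stood at 19.6 and 20.8 CPM in somatotrope-like and at 7.24 and 5.29 CPM in lactotrope-like cells, a log2 fold change of -1.70 (edgeR adjusted p = 3.0e-07). Cenpe (-1.64), Kif11 (-1.46), Cenpf (-1.37), Ccnb1 (-1.37), Mki67 (-1.16) and Ube2c (-1.10) were lower as well, as was Mcm2 (-0.90). With doublet calls kept these changes were smaller, at -1.03 for Cdc20, -0.93 for Cenpe, -0.92 for Kif11, -0.69 for Cenpf, -0.61 for Ccnb1, -0.54 for Mki67, -0.78 for Mcm2 and -0.30 for Ube2c, which lost its edgeR call (adjusted p = 0.356). That setting also named a cluster with 42.7% Gh UMIs lactotrope-like, whose most raised genes were led by Cdca3, Cenpa and Cks2. The part of this naming in the change was not tested. Dut alone was higher (0.45). The 37 genes had a median of -0.65, against -0.03 over all genes. DESeq2 gave 11 calls in place of 22, and with totals that leave out the hormone genes the split of all genes was 2071 higher and 3634 lower, where it was 2589 and 2761.

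The Pomc classes (corticotrope-like and melanotrope-like) had 14 of the 37 genes lower than the mean of somatotrope-like and lactotrope-like cells and none higher (36.2% of all genes called, 20% lower and 16.2% higher). The 14 were 12 mitosis genes with Mcm7 and Tyms. Cdc20 stood at 2.92 and 0 CPM in corticotrope-like and at 2.70 and 4.13 CPM in melanotrope-like cells (log2 fold change -2.33). Ccnb2 (-3.58) and Prc1 (-1.98) were lower too. Ccnb2 had 1 and 0 UMIs in corticotrope-like and 0 and 2 in melanotrope-like cells, so the size of its fold is not well set. DESeq2 gave 8 calls in place of 14. Over the alternatives, the call of Mcm7 was lost in 4, those of Cenpf and Ckap2l in 2 each and those of Aurka, Mki67 and Tyms in 1 each. The split of all genes was 1964 higher and 2420 lower, 2608 and 1655 under DESeq2 and 2367 and 1882 with totals that leave out the hormone genes.

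Stem-like cells had 6 of the 37 genes higher and 3 lower than the mean of the 5 hormone classes (58.8% of all genes called, 32% higher and 26.8% lower). Higher were Ccnb2 (1.87), Prc1 (1.83), Ube2c (1.52), Cdc20 (1.45), Ccnb1 (1.38) and Aurkb, which had no UMI in gonadotrope-like cells and so has no usable fold. Lower were 3 replication genes, Mcm2 (-1.30), Pcna (-0.65) and Dut (-0.39). The mean of the hormone classes counts gonadotrope-like, corticotrope-like and melanotrope-like cells as fully as somatotrope-like ones: Cdc20 stood at 9.03 and 8.60 CPM in stem-like cells, under its 19.6 and 20.8 CPM in somatotrope-like cells. Over both libraries Ccnb2 had 2 UMIs in gonadotrope-like, 1 in corticotrope-like and 2 in melanotrope-like cells, so the size of its fold is not well set.

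Endothelial-like, fibroblast-like and macrophage-like cells together had 28 of the 37 genes higher and 1, Dut (-0.51), lower than the hormone classes (51.7% of all genes called, 21.8% higher and 29.9% lower). Tk1 (3.74), Ccnb2 (3.65), Prc1 (3.57), Cdc20 (3.24), Mki67 (3.19), Ube2c (3.16) and Mcm3 (3.02) led among genes with UMIs in every class, with Ccnb2 at 3.05 when doublet calls were kept. Ccnb2 had only 2 UMIs in gonadotrope-like, 1 in corticotrope-like and 2 in melanotrope-like cells over both libraries. Cdc20 was at 38.6 and 42.9 CPM in endothelial-like, 56.1 and 36.9 CPM in fibroblast-like and 19.9 and 10.1 CPM in macrophage-like cells. In the fibroblast-like and macrophage-like classes these levels rest on 2 to 5 mitosis-positive cells in each library. The 30 genes with UMIs in every class had a median of 2.18, against -0.14 over all genes. Under DESeq2 the split of all genes was 3516 higher and 3111 lower, where it was 2633 and 3622.

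In resting cells alone, 12 replication genes had enough UMIs to be tested between classes (Rrm2, Tk1, Cdc6 and Uhrf1 did not). Lactotrope-like cells had Mcm2 (-1.24), Mcm6 (-0.99), Mcm5 (-0.93), Mcm4 (-0.56), Pcna (-0.44) and Slbp (-0.24) lower and Dut (0.45) and Mcm7 (0.41) higher than somatotrope-like cells in edgeR's test, where 45.2% of all 11742 genes were called, 24% lower and 21.2% higher. Mcm2 stood at 9.69 and 9.56 CPM in resting somatotrope-like and at 3.91 and 4.22 CPM in resting lactotrope-like cells. Dut stood at 45.8 and 45.1 CPM and at 60.8 and 63.1 CPM. For neither gene did the libraries of the 2 classes overlap. DESeq2 gave 3 calls in place of 8. Over the alternatives, the call of Mcm7 was lost in 4, that of Mcm5 in 3, that of Slbp in 2 and those of Mcm4 and Pcna in 1 each.

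Stem-like resting cells had Gins2 (1.27), Mcm6 (1.20) and Slbp (0.25) higher and Mcm2 (-1.28) lower than the hormone classes (57.1% of all genes called, 31.5% higher and 25.7% lower). Mcm2 was at 3.61 and 2.75 CPM in them, from 8 and 6 UMIs, and Mcm6 at 10.8 and 8.71 CPM. Mcm6 was at 7.89 and 11.7 CPM in corticotrope-like and 8.23 and 5.57 CPM in somatotrope-like cells. It was at 2.33 and 2.39 CPM in gonadotrope-like and 1.42 and 3.25 CPM in melanotrope-like cells, which count as fully in the mean. Gins2 had 2 and 0 UMIs in melanotrope-like cells. The Pomc classes had Mcm2 higher (0.87) than the Gh and Prl classes and no other of the 12 called (36% of all genes called, 16.2% higher and 19.8% lower). The split of all genes was 1906 higher and 2320 lower there, 2477 and 1559 under DESeq2, and 2325 and 1768 with totals that leave out the hormone genes. Mcm2 was at 8.68 and 13.6 CPM in corticotrope-like and 12.8 and 10.8 CPM in melanotrope-like cells. Among hormone and stem-like cells, resting Mcm2 levels were thus highest in the somatotrope-like, corticotrope-like and melanotrope-like classes and lowest in stem-like cells.

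Endothelial-like, fibroblast-like and macrophage-like resting cells had Mcm3 (3.37 ± 0.57, edgeR adjusted p = 7.5e-07), Mcm6 (1.76) and Gins2 (1.33) higher and Dut (-0.87) lower than the hormone classes (49.3% of all genes called, 20.4% higher and 28.9% lower). The split of all genes was 2392 higher and 3396 lower, 3221 and 2876 under DESeq2, and 1961 and 4452 with totals that leave out the hormone genes. Mcm3 was at 27.9 and 29.8 CPM in resting endothelial-like cells. It was at 6.44 and 6.02 CPM in fibroblast-like and 9.04 and 10.9 CPM in macrophage-like cells, and at 2.13 and 1.58 CPM in somatotrope-like, 1.23 and 1.41 CPM in lactotrope-like and 2.26 and 1.37 CPM in stem-like cells. Endothelial-like cells stood above the other 8 classes of the fit in both libraries, and fibroblast-like and macrophage-like cells above the hormone and stem-like classes. Those levels rest on few Mcm3 UMIs, 3 and 3 in fibroblast-like and 2 and 3 in macrophage-like cells. Mcm3 had 2 and 0 UMIs in gonadotrope-like, 4 and 1 in corticotrope-like and 0 and 2 in melanotrope-like cells. Gins2 had 3 and 1 in macrophage-like and 2 and 0 in melanotrope-like cells.

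A UMI of Mcm3 was found in 15.8% and 17.4% of resting endothelial-like cells and in 1.29% and 0.953% of resting somatotrope-like cells, and after thinning in 8% and 10.4% of the former. Free RNA would give one to 0.0428% and 0.0308% of endothelial-like cells. Some resting cells held at least 6 replication genes, 73 over all classes. Without such cells, Mcm3 was at 34.2 and 32.9 CPM without TMM scaling in resting endothelial-like cells, next to 37.4 and 41.0 CPM with them. Tyms was at 39.7 and 29.8 CPM in resting endothelial-like and at 13.7 and 11.98 CPM in resting somatotrope-like cells. Mcm6 varied more between the libraries, at 8.82 and 24.6 CPM in resting endothelial-like against 8.23 and 5.57 CPM in somatotrope-like cells. Endothelial-like cells alone were looked at after the values were seen and have no test of their own here.

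**Figure D4:**
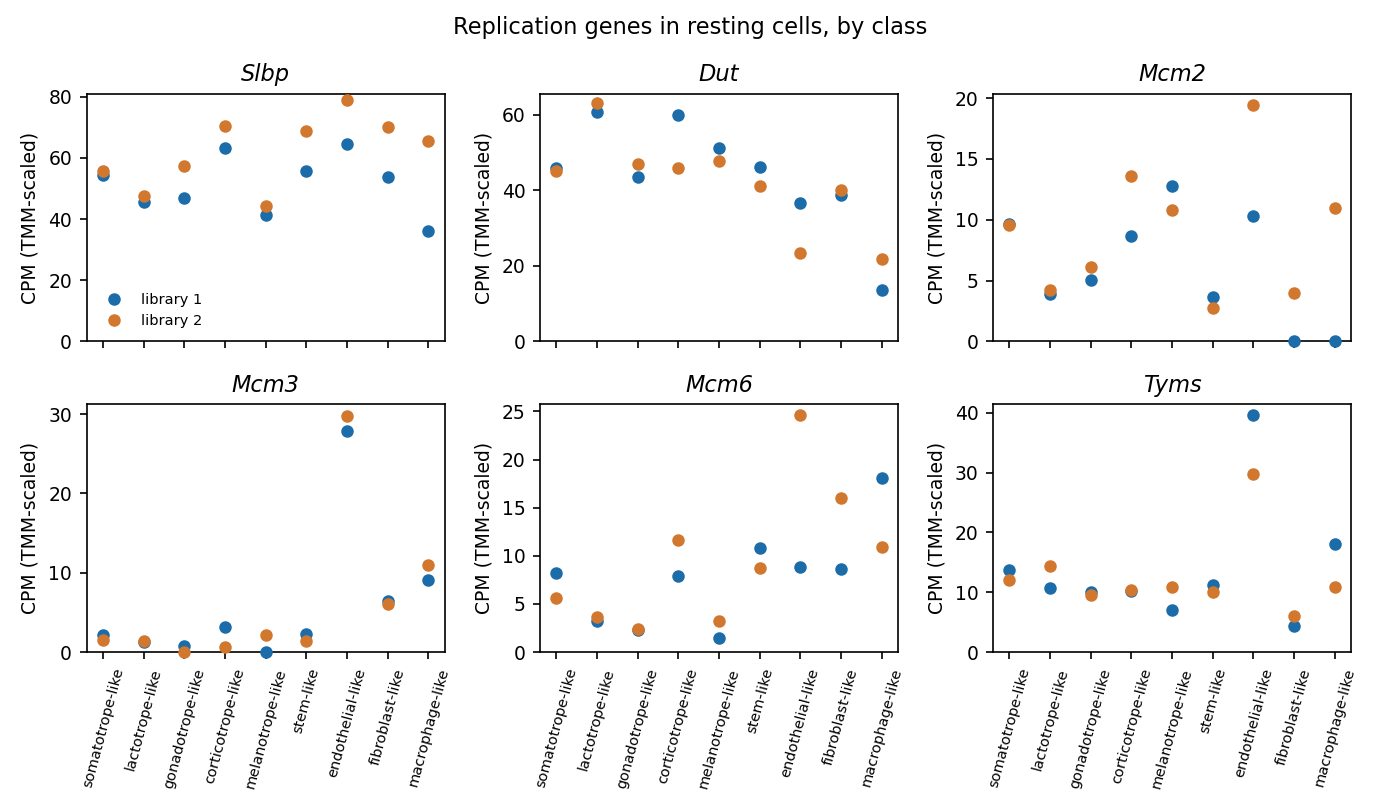
Level in CPM of Slbp, Dut, Mcm2, Mcm3, Mcm6 and Tyms in resting cells of 9 classes, with 1 point per library. Mcm3 stands at 27.9 and 29.8 CPM in endothelial-like cells and at 2.13 and 1.58 CPM in somatotrope-like cells, while Slbp lies between 36.2 and 78.9 CPM in every class drawn.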

How the data were processed

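Dispersed pituitary cells of 2 pools were profiled with the 10x 3′ v2 chemistry, per the labels' protocols. The values are raw UMI counts as deposited. The submitters' processing notes name Cell Ranger, STAR and the build mm10, without versions, and the use of strand is not stated there. A deposited t-SNE table gives each cell's coordinates, used here as scores without a unit.

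Barcodes with at least 500 UMIs, 250 genes and at most 20% mitochondrial UMIs were kept, 6505 of 6546 and 7060 of 7117. The 7.6% of cells with the highest doublet score in each library, 494 and 536, were removed, where 7.6% is the multiplet rate the labels give. Cells were clustered on 86 marker genes, as log1p of counts scaled to 10000 and to at most 10 per gene, with 11 principal components, 15 neighbours and Leiden (leidenalg 0.10.2, igraph 0.11.9, umap-learn 0.5.12) at resolution 1, into 29 clusters. Named genes are the 39 members, up to 6 genes of each pathway list, and class markers.

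Counts summed per class, state and library were tested with edgeR 4.0.16 (quasi-likelihood, robust, TMM, filterByExpr, library as a block) and Benjamini-Hochberg adjustment at 0.05. Genes used to name classes were left out of class tests, and mitosis genes out of the test between states. The scripts were tested on simulated data. CPM are counts scaled to a common total with TMM factors. Intervals are exact binomial at 95%, and a count of 0 allows up to 3 counts. Alternatives were DESeq2 1.42.0, totals without 7 hormone genes, no filter, no block, doublet calls kept, resolutions 0.5 and 2, limits of 2 and 4 mitosis genes, thinning to 2000 or 3000 UMIs, and 1 library left out. The 2 libraries form 1 group, so the block joins classes of the same pool. The members and lists were chosen with earlier results of these data known. Mcm4, Gins2, Ccna2, Aurkb and Tpx2 had no promoter in the table used.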

Additional observations from a re-analysis of the deposited data

Results flagged for a closer look

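The change of several replication genes from resting to mitosis-positive cells differed between classes. These differences were tested with edgeR in the same fit, by contrasts added after the values were seen. Endothelial-like cells had a smaller log2 change than the mean of somatotrope-like and lactotrope-like cells for 7 of the 16 genes, where 2.45% of all genes were called lower. This rests on 12 and 11 endothelial-like mitosis-positive cells, and resting cells with at least 6 replication genes were kept. The difference was -3.64 for Mcm3, -2.17 for Tyms, -2.35 for Mcm5, -1.95 for Mcm2, -1.89 for Mcm6, -1.88 for Rrm1 and -1.23 for Pcna, and it was negative in both libraries for each (Mcm3 -2.96 and -4.31, Tyms -1.89 and -2.69). In resting endothelial-like cells Mcm3 was at 27.9 and 29.8 CPM, Tyms at 39.7 and 29.8 CPM and Mcm5 at 10.3 and 15.5 CPM, each above the other 8 classes in both libraries. The calls of Mcm3, Tyms and Mcm6 were made under each alternative with a test, and those of Mcm2, Mcm5, Rrm1 and Pcna were lost with doublet calls kept, that of Pcna also under 5 others. With doublet calls kept, a cluster with 42.7% Gh UMIs was named lactotrope-like, a class that enters this contrast.

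Lactotrope-like cells had a larger log2 change than somatotrope-like cells for 5 genes, where 0.99% of all genes were called higher. The difference was 1.69 for Mcm2, 1.28 for Mcm6, 1.03 for Pcna, 0.83 for Slbp and 0.56 for Dut, positive in both libraries for each (Mcm2 1.76 and 1.68). Mcm2, Mcm6, Pcna and Slbp were the lower ones in resting lactotrope-like cells. The call of Mcm2 was made under each alternative with a test, while the other 4 were lost with doublet calls kept and under DESeq2. With doublet calls kept, the lactotrope-like class included a cluster with 42.7% Gh UMIs.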

How the results depend on the processing

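The direction of each of the 39 genes called in a comparison was the same under each alternative run for it; the pathway genes were not run under alternatives. Of single-gene calls between states and classes, 761 stayed on their side of the threshold and 49 lost their call over all alternatives other than leaving out a library. The cause was not tested for any of these. Numbers of called genes moved as follows. DESeq2 gave 11 in place of 22 for lactotrope-like against somatotrope-like cells, 8 in place of 14 for the Pomc classes, and 3 in place of 8 for resting lactotrope-like cells. For the Pomc classes at rest the count of 1 became 2 under DESeq2, with totals that leave out the hormone genes, with doublet calls kept, and with resting cells of at most 5 replication genes. Of the differences in change between classes, the lactotrope-like count of 5 became 1 under DESeq2, 3 with no replicate block and 1 with doublet calls kept, and the endothelial-like count of 7 became 3 with doublet calls kept. With doublet calls kept the cells were also clustered anew, and a cluster with 42.7% Gh UMIs was named lactotrope-like. Its most raised genes were led by Cdca3, Cenpa and Cks2. No other count of called genes moved by over 1.5 times without the block. Without 1 library, the genes called between states were 15 to 16.

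Shares of mitosis-positive cells, as means of the libraries, were 3.27% for somatotrope-like, 1.69% for lactotrope-like, 4.37% for stem-like, 8.29% for endothelial-like, 5.04% for fibroblast-like, 3.01% for macrophage-like and 0 for gonadotrope-like cells. With 2 mitosis genes as the limit they were 4.11%, 1.99%, 5.82% and 10.01% for the first 4, 6.29% for macrophage-like and 0.386% for gonadotrope-like cells. With 4 as the limit they were 2.92% (somatotrope-like), 1.504% (lactotrope-like), 3.52% (stem-like) and 4.51% (fibroblast-like). With doublet calls kept they were 2.78%, 2.39%, 4.06%, 9.78%, 4.29%, 4.13% and 0.164%, in the order of the first sentence. The lactotrope-like class then included a cluster with 42.7% Gh UMIs. Thinned to 2000 UMIs they were 2.52%, 1.24%, 2.06%, 6.56% and 4.05% for the first 5, and thinned to 3000 UMIs 2.76% (somatotrope-like), 1.29% (lactotrope-like), 1.80% (stem-like) and 5.51% (fibroblast-like). The median resting share over the 16 replication genes, 4.21%, was 2.47% at 3000 UMIs, 1.72% at 2000 UMIs and 4.26% with doublet calls kept. Depth limits such shares, since a cell with no UMI of a gene may still express it.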
